A study of Mus musculus with 4 samples.

Results

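BAFF and APRIL are 2 related cytokines that bind a shared set of receptors on B cells and plasma cells. The 5 genes described here are the receptors Tnfrsf17 (BCMA), Tnfrsf13b (TACI) and Tnfrsf13c (BAFF-R) and the ligands Tnfsf13 (APRIL) and Tnfsf13b (BAFF), taken by gene symbol from the 24421 genes counted. RNA was sequenced from 4 subcutaneous allograft tumours of J558, a mouse plasmacytoma line whose cell type the labels give as B lymphocyte, grown in the right flank of female BALB/c mice. Of these, 2 tumours came from mice given 0.5% methylcellulose by mouth (Vehicle-1 and Vehicle-2) and 2 from mice given daily oral TAK-931 at 60 mg/kg (TAK-931-1 and TAK-931-2), all sampled at day 6. TAK-931 inhibits CDC7, a kinase needed to start DNA replication. Each tumour is 1 mouse, the mice were 4 weeks old, the 1 tumour line is shared by all groups, and the BALB/c host keeps its own immune and stromal cells.

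BAFF-R binds BAFF alone, BCMA binds mainly APRIL, and TACI binds both. BAFF-R is the receptor that resting mature B cells need to survive, whereas BCMA is typical of plasma cells and plasmacytomas, and TACI is found on activated B cells and on many plasma cells. BAFF and APRIL are made chiefly by myeloid and stromal cells. The receptors recruit TRAF adaptors, and BAFF-R in particular releases the kinase NIK from degradation, which leads to the alternative NF-κB pathway and to expression of survival genes of the BCL2 family.

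The sequences before the transcription starts of the 3 receptor genes, which share a family and a tumour, are shown for description. Their part in the transcript levels was not tested. They are the RefSeq sequences of GRCm38.p6, 250 bases each, 5′ to 3′ on the gene's strand, and capitals mark the motifs described below.
BCMA (chr16:11313559-11313808, plus strand): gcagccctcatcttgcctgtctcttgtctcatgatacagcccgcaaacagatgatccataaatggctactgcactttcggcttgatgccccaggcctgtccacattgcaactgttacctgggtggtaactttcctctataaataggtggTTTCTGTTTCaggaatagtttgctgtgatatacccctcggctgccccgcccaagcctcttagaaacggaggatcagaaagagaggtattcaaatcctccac
TACI (chr11:61126505-61126754, plus strand): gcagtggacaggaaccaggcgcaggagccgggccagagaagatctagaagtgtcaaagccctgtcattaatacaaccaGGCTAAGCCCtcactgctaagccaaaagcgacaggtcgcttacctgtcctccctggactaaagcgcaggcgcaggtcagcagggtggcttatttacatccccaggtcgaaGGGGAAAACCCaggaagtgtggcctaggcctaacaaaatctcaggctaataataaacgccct
BAFF-R (chr15:82224381-82224630, minus strand): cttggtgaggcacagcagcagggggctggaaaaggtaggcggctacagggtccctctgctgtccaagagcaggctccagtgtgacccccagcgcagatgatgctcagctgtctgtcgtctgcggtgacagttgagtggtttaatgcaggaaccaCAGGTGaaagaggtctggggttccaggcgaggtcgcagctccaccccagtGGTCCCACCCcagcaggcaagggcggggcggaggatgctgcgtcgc
A 30-base stretch that ends just before the second of 2 RefSeq starts of the BAFF gene is shown because it holds a motif described below. Its part in the BAFF level was not tested.
BAFF (chr8:10006603-10006632, plus strand): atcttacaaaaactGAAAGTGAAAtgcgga

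The letters searched on both strands were GGG and CC with 5 free bases between them for NF-κB, GAAA and GAAA with 2 free bases for the interferon-stimulated response element, TTC and GAA with 3 for the gamma-activated site, GGAA and GAAA with 2 for the ETS-IRF composite element, ATGCAAAT for the octamer and CAGGTG for an E-box. The BCMA promoter held the interferon-stimulated response element letters, read on the opposite strand, from 101 to 92 bases before the start. Of the 2 BAFF promoters searched, the one before the first start held none of the 6 motifs, and the one before the second start held the interferon-stimulated response element letters from 16 to 7 bases before it. That stretch lies in the 166 bases that are also exon of a BAFF transcript starting upstream. Of 32851 promoters of the same length, 2.98% held these letters. The TACI promoter held the NF-κB letters at 3 positions, of which 2 overlap, and the BAFF-R promoter held them at 1 position. The APRIL promoter, not shown, held them at 2 overlapping positions, from 20 to 10 bases before its start. Of its 250 bases, 230 are also APRIL exon. At least 1 match was present in 45.8% of all promoters. BAFF-R also had the E-box letters, found in 17.2% of promoters. These matches describe the letters only. The TACI gene model in the count tables starts 14080 bases downstream of the RefSeq start, so exons between the 2 starts are not in its counts.

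Among the receptors, BCMA differed in behaviour from TACI and BAFF-R. TACI and BAFF-R transcripts were lower in both TAK-931-treated allografts than in either vehicle-treated one, whereas BCMA was lower in TAK-931-1 and higher in TAK-931-2. The ligand transcripts were close to the detection limit in 3 libraries and highest in TAK-931-1. By edgeR's quasi-likelihood test, 0 of the 4 members that passed the filter on low counts had a Benjamini-Hochberg adjusted p under 0.05, as did 0% of the 13669 genes tested. At an unadjusted p under 0.05 there were also 0 of 4 members, against 11.6% of all genes higher and 6.55% lower. This count was 1, BAFF-R, with DESeq2, limma-voom, no filter and without Vehicle-1, where 23.5%, 14.3%, 15.9% and 6.86% of all genes passed in either direction. Among the 4 tested members, 2 were lower in both TAK-931-treated libraries and 0 were higher in both, where 32.7% and 30% of all genes were. The share of members lower in both is therefore read against a common pattern in these libraries. Each edgeR p-value weighs the group difference against the estimated spread between mice.

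**Figure D1:**
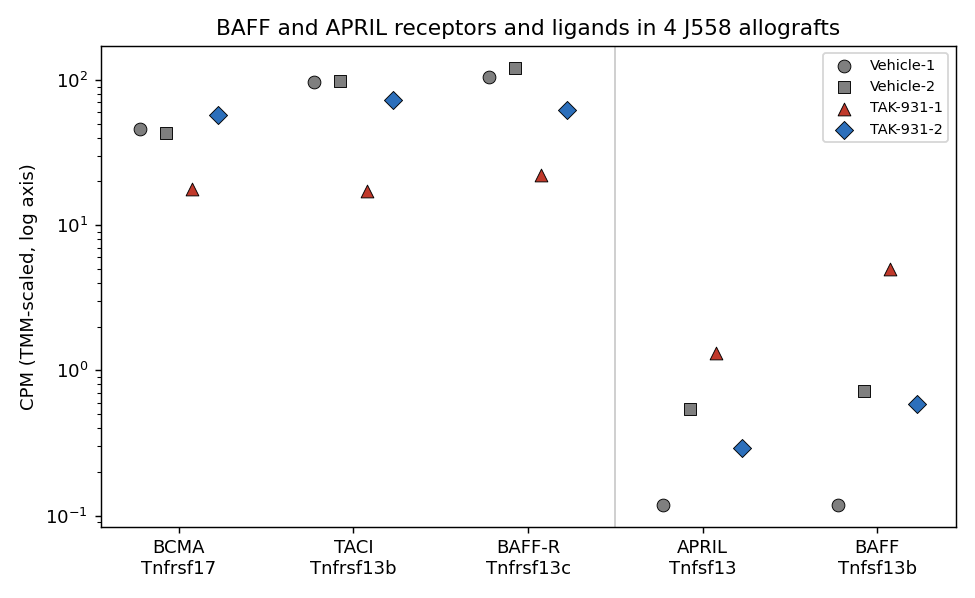
CPM of the 3 receptors and 2 ligands (log axis), 1 point for each of the 4 allografts. Receptors lie between 17.1 and 121 CPM and ligands between 0.119 and 4.95 CPM, TAK-931-1 is the lowest library for every receptor and the highest for both ligands, and TAK-931-2 lies above both vehicle libraries for BCMA.

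The libraries were not alike, which bears on every value given here. Total counts were between 16487902 and 19589339. TAK-931-1 stood apart, with a summed level of the 15 plasma cell markers of 7335 CPM against between 18439.7 and 21220.8 CPM in the other libraries. The 15 monocyte and macrophage markers summed to 10120.3 CPM in TAK-931-1, 1861 CPM in TAK-931-2 and between 600.0 and 724 CPM in vehicle. CPM here is the count of a gene divided by the TMM-scaled library total, on the usual scale. In bulk tumours, fewer cells of a type and less RNA per cell cannot be told apart, and the part of this shift in the results was not tested. Of the defining mature B cell markers, Pax5 had 0 counts in every library and Cd79a was at most 1.58 CPM, whereas the plasma cell markers Pou2af1, Jchain and Txndc5 were at 4875, 5657 and 1360 CPM in Vehicle-2. Other B cell markers were present, with Cd79b, Fcrl1 and Ms4a1 at 209, 57.1 and 30.2 CPM in Vehicle-2, so the tumours carried plasma cell markers together with some of the B cell markers, and the labels call the line a B lymphocyte.

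BCMA (Tnfrsf17, mm10 chromosome 16, 11313809 to 11320068, plus strand, 812 exon bases) is the receptor that long-lived plasma cells depend on. It had 770 and 716 counts in Vehicle-1 and Vehicle-2, and 339 and 983 counts in TAK-931-1 and TAK-931-2, which are 45.7, 42.9, 17.9 and 57.4 CPM. The vehicle libraries lay close together, and the 2 TAK-931-treated libraries lay on either side of them. The mean was 44.3 ± 1.94 CPM in vehicle and 37.6 ± 27.9 CPM in TAK-931 (SD, n = 2). The log2 fold change was −0.24 (SE 0.59, 95% interval −1.84 to 1.37), with an edgeR adjusted p of 0.825. The spread between the TAK-931-treated libraries was therefore larger than the difference between the groups. Without TAK-931-1 the direction turned, with a log2 fold change of 0.37 and an edgeR adjusted p of 0.0490, and without TAK-931-2 it was −1.33 with an adjusted p of 0.00127. In each of these fits the lone treated library is assumed to vary as the vehicle pair does, and such fits called 28.7% of all genes tested without TAK-931-1 and 58.1% without TAK-931-2, so a pass in them is common.

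TACI (Tnfrsf13b, chromosome 11, 61140835 to 61147642, plus strand, 750 exon bases) can drive class switching and plasma cell differentiation and can also restrain B cell growth. It had 1638, 1649, 324 and 1238 counts in Vehicle-1, Vehicle-2, TAK-931-1 and TAK-931-2, or 97.1, 98.8, 17.1 and 72.2 CPM. Both TAK-931-treated libraries were below both vehicle libraries, at 0.174 times the vehicle mean in TAK-931-1 and 0.737 times in TAK-931-2. The mean was 98.0 ± 1.21 CPM in vehicle and 44.7 ± 39.0 CPM in TAK-931 (SD, n = 2). The log2 fold change was −1.13 (SE 0.71, 95% interval −3.06 to 0.79), with an edgeR adjusted p of 0.389. It was −0.44 without TAK-931-1 (adjusted p 0.0126) and −2.54 without TAK-931-2 (adjusted p 0.000163), read beside the same large shares of all genes called in those fits.

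BAFF-R (Tnfrsf13c, chromosome 15, 82221744 to 82224336, minus strand, 1906 exon bases) is the survival receptor of naive B cells and the family member most tied to the alternative NF-κB pathway. It had 1757 and 2021 counts in Vehicle-1 and Vehicle-2, and 420 and 1056 counts in TAK-931-1 and TAK-931-2, or 104, 121, 22.1 and 61.6 CPM. The groups did not overlap, and TAK-931-2 was at 0.547 times the vehicle mean, a lower share than for TACI, while TAK-931-1 was at 0.196 times. The mean was 113 ± 11.99 CPM in vehicle and 41.9 ± 27.9 CPM in TAK-931 (SD, n = 2). The log2 fold change, the lowest of the 3 receptors, was −1.43 (SE 0.54, 95% interval −2.89 to 0.03), with an unadjusted p of 0.0537 and an edgeR adjusted p of 0.276. It was −0.87 without TAK-931-1 (adjusted p 0.00166) and −2.37 without TAK-931-2 (adjusted p 0.000291), in the same fits. Leaving out a vehicle library gave −1.52 and −1.33, with edgeR adjusted p of 0.693 and 0.783.

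Per kilobase of exon, TACI was the most abundant receptor transcript of the vehicle-treated allografts, and its lead over BCMA, but not over BAFF-R, was narrower in both TAK-931-treated ones. This ranking depends on the exon lengths of the gene models, 750 bases for TACI and 1906 for BAFF-R. In CPM, BAFF-R was above TACI in Vehicle-1 and Vehicle-2, at 104 and 121 against 97.1 and 98.8. Levels per kilobase in Vehicle-1 and Vehicle-2 were 130 and 132 CPM per kb for TACI, 56.2 and 52.9 for BCMA, and 54.7 and 63.6 for BAFF-R. BCMA and BAFF-R could not be ranked in vehicle, since each was the higher in 1 library. In TAK-931-1 the levels were 22.8 CPM per kb for TACI, 22.0 for BCMA and 11.6 for BAFF-R, and in TAK-931-2 they were 96.3, 70.6 and 32.3. BCMA thus ranked above BAFF-R in both treated allografts, and TACI was 1.03 and 1.36 times BCMA there, against 2.30 and 2.49 times in vehicle. As a share of the summed level per kb of the 3 receptors, BCMA made up 23.4% and 21.3% in vehicle and 39.0% and 35.4% in TAK-931. TACI made up 53.9% and 53.1% against 40.4% and 48.3%, and BAFF-R 22.7% and 25.6% against 20.6% and 16.2%.

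**Figure D2:**
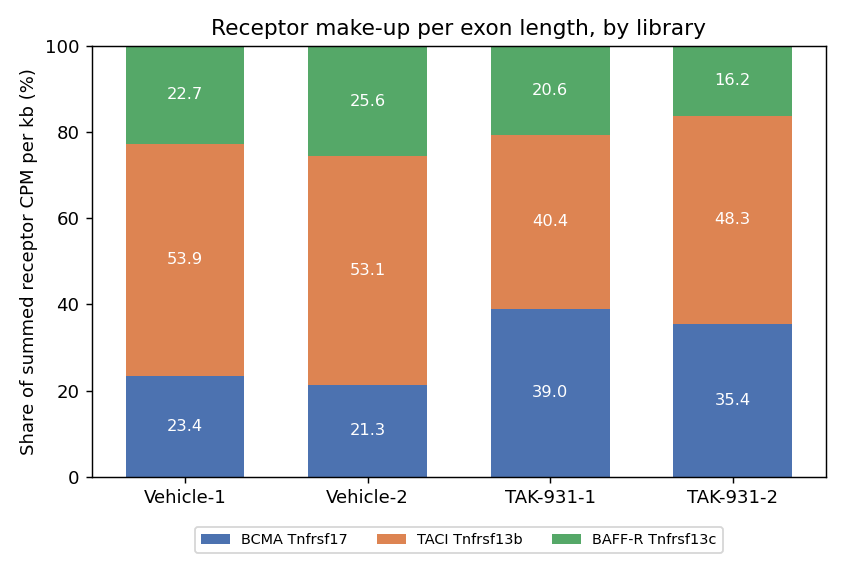
Share of each receptor in the summed CPM per kilobase of exon of BCMA, TACI and BAFF-R (percent), 1 stacked bar for each allograft. BCMA takes between 21.3% and 23.4% in the vehicle libraries and between 35.4% and 39.0% in the TAK-931 libraries, although the summed level behind the bars runs from 56.4 to 248 CPM per kb. The shares depend on the exon lengths of the gene models.

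A ratio taken inside 1 library does not depend on how libraries are scaled, and the ratios of BCMA to the other receptors separated the groups. The log2 ratio of BCMA to TACI was −1.09 and −1.20 in Vehicle-1 and Vehicle-2, and 0.06 and −0.33 in TAK-931-1 and TAK-931-2, a difference of 1.01 between the group means. The log2 ratio of BCMA to BAFF-R was −1.19, −1.49, −0.31 and −0.10 in the same order, a difference of 1.14. In both ratios the 2 treated libraries were above the 2 vehicle libraries. Relative to BCMA, 8.01% of all tested genes were lower in both treated libraries, and TACI and BAFF-R were among them. These receptor ratios were chosen after the values were seen. With 2 libraries against 2, the exact two-sided permutation test gave p = 0.333 for each, the smallest it can give, and 0.407 after Benjamini-Hochberg adjustment over 11 ratios.

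To set the receptors beside plasma cell transcripts, each was divided by the mean of the plasma cell marker list in the same library. For TACI and BAFF-R this was chosen after their values were seen. The part of host cells in the list was not tested. The log2 ratio of BCMA to this list was −3.83 and −3.92 in Vehicle-1 and Vehicle-2, and −3.82 and −3.57 in TAK-931-1 and TAK-931-2. BCMA was slightly higher relative to the list in both treated libraries, and its group means differed by 0.18, or by 0.31 without TAK-931-1 and 0.06 without TAK-931-2. For TACI the ratio was −2.75, −2.72, −3.88 and −3.24, a difference of −0.83. For BAFF-R it was −2.65, −2.42, −3.51 and −3.47, a difference of −0.95, and the 2 treated libraries were almost equal although their BAFF-R levels were far apart. TACI and BAFF-R were lower than the list in both treated libraries, as 6.85% of all tested genes were, whereas 36.9% were higher, BCMA with them. Set against the other 14 markers in the same way, the 15 markers themselves differed by between −0.61 and 1.19, and TACI and BAFF-R were both below that range with all 4 libraries. For TACI this rested on TAK-931-1, since without that library its difference was −0.51, whereas that of BAFF-R was −0.93. Relative to Trap1a alone, a tumour antigen gene of mouse plasmacytoma and mastocytoma, the differences were 0.28 for BCMA, −0.73 for TACI and −0.86 for BAFF-R. The exact two-sided permutation p was 0.333 for each of these ratios.

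**Figure D3:**
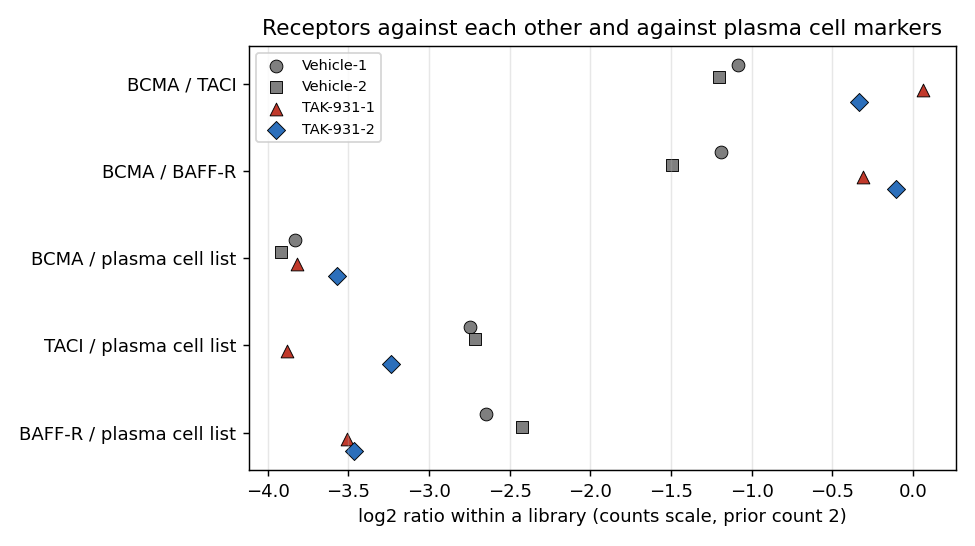
Log2 ratios within each library of BCMA to TACI and BAFF-R, and of each receptor to the mean of 15 plasma cell markers, 1 point for each allograft. The TAK-931 points lie to the right of the vehicle points for BCMA over TACI and BCMA over BAFF-R, and to the left for TACI and BAFF-R over the plasma cell list, with BCMA over the list between −3.92 and −3.57 throughout.

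Of the ligands, BAFF (Tnfsf13b, chromosome 8, 10006633 to 10035999, plus strand, 1698 exon bases) supports B cells through all 3 receptors to different degrees. It had 2 and 12 counts in Vehicle-1 and Vehicle-2, and 94 and 10 counts in TAK-931-1 and TAK-931-2, or 0.119, 0.719, 4.95 and 0.583 CPM. A count of 0 would allow up to 3 counts, so the Vehicle-1 value is under that floor, and TAK-931-2 lay between the 2 vehicle libraries. Against the pooled vehicle counts, BAFF was 11.9-fold in TAK-931-1 (95% counting interval 6.73 to 22.5) and 1.40-fold in TAK-931-2 (0.556 to 3.38). These intervals cover counting error only, and they are too narrow because both mates of a read pair appear to have been counted. The log2 fold change was 2.71 (SE 1.46, 95% interval −1.22 to 6.64) with an edgeR adjusted p of 0.341. It was 0.47 without TAK-931-1, 1.92 without Vehicle-1 and 4.43 without Vehicle-2, and of the alternatives run it passed the threshold only without TAK-931-2, at 3.52 with an adjusted p of 0.0285, in the fit that called 58.1% of all genes. At this depth, no difference in BAFF between TAK-931-2 and vehicle was detectable.

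BAFF was highest in the library with the highest macrophage marker levels, and its level was therefore also taken relative to them. The log2 ratio of BAFF to the mean of the 15 macrophage markers was −6.81 and −4.84 in Vehicle-1 and Vehicle-2, and −6.14 and −6.56 in TAK-931-1 and TAK-931-2. The treated libraries lay between the vehicle libraries, so the groups overlapped, with a difference between means of −0.53 (exact two-sided permutation p = 1). Relative to a list of 17 interferon genes the difference was −0.78 (exact two-sided permutation p = 0.667). Both ratios rest on 2 counts of BAFF in Vehicle-1. The direction against macrophage markers turned to 0.46 without Vehicle-2.

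APRIL (Tnfsf13, chromosome 11, 69682577 to 69685554, minus strand, 1679 exon bases) sustains plasma cells through BCMA and TACI. It had 2 and 9 counts in Vehicle-1 and Vehicle-2, and 25 and 5 counts in TAK-931-1 and TAK-931-2, or 0.119, 0.539, 1.32 and 0.292 CPM, and did not pass the filter, so it was not tested. TAK-931-1 was the highest library and TAK-931-2 lay between the vehicle libraries, as for BAFF. Against pooled vehicle counts, APRIL was 4.02-fold in TAK-931-1 (95% counting interval 1.91 to 9.04) and 0.890-fold in TAK-931-2 (0.242 to 2.78). With no filter applied, the log2 fold change was 1.24 with an edgeR adjusted p of 0.630.

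The APRIL counts have a limit that comes from the gene model. Of its 1679 exon bases, 1255 (74.7%) also belong to Tnfsfm13, a model for read-through transcripts that join the TWEAK gene Tnfsf12 to APRIL, and 424 are its own. Tnfsfm13, of 2235 bases, had 0 counts in every library, so no read within the shared exons was counted for it. Such a read can also be left uncounted for APRIL by featureCounts, and whether that happened was not tested. If only the own bases were counted, the APRIL level would be 0.280, 1.27, 3.11 and 0.688 CPM per kb in Vehicle-1, Vehicle-2, TAK-931-1 and TAK-931-2. TWEAK, a ligand of another receptor of the family, shares 977 of its 1694 exon bases in the same way, and had 36, 25, 596 and 45 counts in the same order. TWEAK was higher in both treated libraries, by far the most in TAK-931-1, with a log2 fold change of 3.22 (SE 1.29) and an edgeR adjusted p of 0.281.

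**Figure D4:**
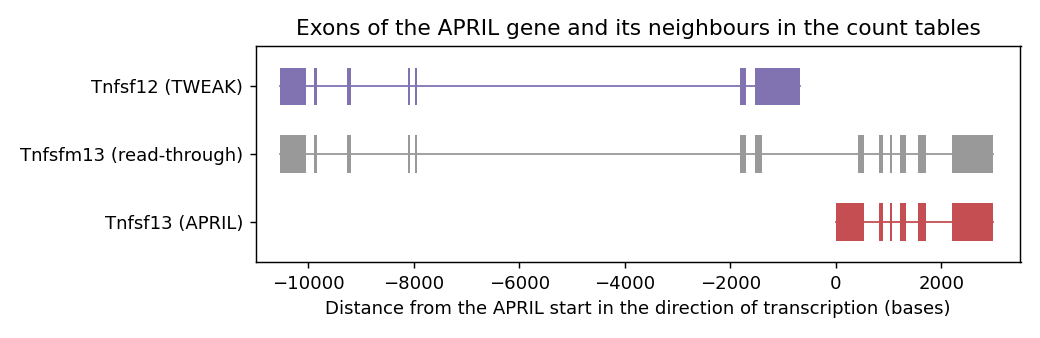
Exons (blocks) of Tnfsf12, Tnfsfm13 and Tnfsf13 as the count tables model them, placed by distance in bases from the APRIL start in the direction of transcription. All APRIL exons except 424 bases at the start coincide with exons of the read-through model.

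Between ligands, the order of BAFF and APRIL depended on which exon bases of APRIL were counted. With the full exon length, the log2 ratio of BAFF to APRIL per length was −0.02 and 0.33 in Vehicle-1 and Vehicle-2, and 1.81 and 0.76 in TAK-931-1 and TAK-931-2. Both treated libraries were above both vehicle libraries, by 1.13 between means (exact two-sided permutation p = 0.333), or by 0.61 without TAK-931-1 and 1.65 without TAK-931-2, yet 3 of the 4 values rest on 12 counts or fewer for each gene. Set against the level of APRIL on its own bases alone, BAFF was the lower in every library, with 0.0698 and 0.424 CPM per kb in vehicle and 2.92 and 0.344 CPM per kb in TAK-931, so no order of the ligands is given. Per kilobase of full exon length, the ligands were at between 0.0698 and 2.92 CPM per kb in all libraries, while each receptor was at 11.6 or more. Every receptor was above every ligand in every library on that scale.

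Ligand release and receptor shedding depend on proteases. Furin, the convertase that cuts BAFF and APRIL free, was at 48.4 and 42.2 CPM in vehicle and 117 and 65.9 CPM in TAK-931. It was higher in both treated libraries, with a log2 fold change of 1.01 (SE 0.35, edgeR adjusted p = 0.275). Adam10 and Adam17, which shed TACI and BAFF-R among other proteins, were at 138, 138, 170 and 131 CPM and at 168, 159, 214 and 181 CPM in Vehicle-1, Vehicle-2, TAK-931-1 and TAK-931-2. Of the γ-secretase subunits, which cut BCMA from the membrane, Aph1a and Aph1b were among those lower in both treated libraries, while Aph1c, Psenen and Ncstn had positive log2 fold changes of 1.98, 0.48 and 0.18, and none of these passed the test. Of the 10 genes of this list, 1 was higher and 0 were lower at an unadjusted p under 0.05, and for this and the following lists the shares of all genes were 11.6% and 6.55%. Here the median log2 fold change was 0.23, against 0.02 over all genes tested. It was −0.08 without TAK-931-1.

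APRIL also binds heparan sulfate proteoglycans. Sdc1 (syndecan-1, CD138), the proteoglycan of plasma cells, was the most abundant of the 8 listed in vehicle, at 696 and 692 CPM, and was at 241 and 588 CPM in the treated libraries. Sdc3, in contrast, was at 84.9 and 65.6 CPM in vehicle and 1061 and 218 CPM in TAK-931. Sdc2, Sdc4 and Gpc6 were also higher in both treated libraries, and these 4 genes had an unadjusted p under 0.05, with 0 genes lower. The median log2 fold change of the list was 2.07, and it was 0.73 without TAK-931-1.

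Downstream of the receptors, the TRAF adaptors and the NIK degradation complex held 4 of 10 genes that were higher at an unadjusted p under 0.05, namely Traf1, Traf5, Birc3 and Map3k14, and 0 that were lower. Map3k14, which encodes NIK, was at 4.15 and 5.87 CPM in vehicle and 30.1 and 11.9 CPM in TAK-931. Birc3 (cIAP2), a ligase of the complex that degrades NIK, was at 63.9 and 63.7 CPM in vehicle and 91.3 and 160 CPM in TAK-931, higher in TAK-931-2 than in TAK-931-1. Traf3 and Traf2, the adaptors that hold NIK in that complex, overlapped between groups, at 71.6, 62.3, 56.7 and 94.8 CPM and at 43.4, 48.4, 49.6 and 40.9 CPM in Vehicle-1, Vehicle-2, TAK-931-1 and TAK-931-2. The median log2 fold change of this list was 0.24, and 0.45 without TAK-931-1.

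Of 12 NF-κB subunits, inhibitors and IKK genes, 7 were higher in both treated libraries and 1, Chuk (IKKα), was lower in both, beside 30% and 32.7% of all genes tested. Nfkb2, the precursor that NIK signalling processes, was at 55.6 and 57.6 CPM in vehicle and 99.7 and 83.4 CPM in TAK-931. Tnfaip3 (A20), an inhibitor that NF-κB itself induces, was at 34.2 and 36.4 CPM in vehicle and 66.0 and 76.9 CPM in TAK-931. Nfkbie, another induced inhibitor, was at 16.4 and 10.4 CPM against 45.5 and 36.9 CPM. These 3 genes had treated libraries that were near each other. They were the genes of the list with an unadjusted p under 0.05, and a low p favours such nearness. In the rest of the list this varied, with Nfkbia at 175 and 278 CPM in TAK-931-1 and TAK-931-2, and Rel at 9.11 and 9.63 CPM. Nfkb2, Tnfaip3 and Nfkbie had an edgeR adjusted p of 0.275, a value that 2434 genes shared, and the median of the list was 0.40. Relb was at 21.9 and 18.6 CPM in vehicle and 36.3 and 30.1 CPM in TAK-931, while Rela was between 95.7 and 101 CPM throughout.

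Of 9 listed genes of the BCL2 and PIM families, 8 favour survival and 1, Bcl2l11 (BIM), promotes cell death. Bcl2l1 (BCL-XL), which protects cells, was at 47.3 and 44.0 CPM in Vehicle-1 and Vehicle-2, and 96.6 and 97.0 CPM in TAK-931-1 and TAK-931-2, a log2 fold change of 1.08 (SE 0.20, 95% interval 0.55 to 1.62), with an edgeR adjusted p of 0.275. Mcl1, the survival factor that BCMA signalling maintains in plasma cells, overlapped between groups at 2706, 2690, 1557 and 3475 CPM, with TAK-931-1 lowest and TAK-931-2 highest as for BCMA. Pim1 and Pim2 had the same order. Of 15 plasma cell markers, 14 were below both vehicle libraries in TAK-931-1 and 8 were above both in TAK-931-2. Bcl2 was lower in both treated libraries, at 26.3 and 27.1 CPM against 12.01 and 19.7 CPM. Bcl2a1a, Bcl2a1b and Bcl2a1d, near-identical copies whose reads may be split uncertainly, were higher in both. Bcl2l11 was at 66.2 and 86.6 CPM in vehicle and 110 and 133 CPM in TAK-931, with a log2 fold change of 0.67 that is itself the list median. In all, 4 of the 9 genes were higher and 0 lower at an unadjusted p under 0.05. They were Bcl2l1 and the near-identical Bcl2a1a, Bcl2a1b and Bcl2a1d, which may not count as separate genes. The median of the 8 genes without Bcl2l11 was 0.85, or 1.15 without TAK-931-1.

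Other ligands and receptors that act through NIK were compared as well. Of 11 listed genes 8 were tested, and 5 were higher at an unadjusted p under 0.05 (Cd40, Ltbr, Ltb, Tnfrsf11a and Tnfrsf1b), with 0 lower. Cd40, the receptor for T cell help, was at 5.81 and 1.56 CPM in vehicle and 25.4 and 20.5 CPM in TAK-931. Ltb, a subunit of the lymphotoxin ligand, was at 7.06 and 3.12 CPM against 106 and 24.3 CPM. Of the ligands, Cd40lg had 0.119 CPM or less in every library, and Lta was above 0 only in TAK-931-1, at 1.69 CPM. The list median was 2.16, and it was 0.80 without TAK-931-1. With Ifng, the gene for interferon-γ itself, set aside from the list, 13 of 16 interferon-stimulated genes were higher at an unadjusted p under 0.05 and 0 lower. Their median was 2.81, or 2.03 without TAK-931-1. Likewise, among 15 macrophage markers 14 were higher and 0 lower, with a median of 3.11 that was 1.52 without TAK-931-1. The part that such host cells had in the NF-κB and survival transcripts was not tested.

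**Figure D5:**
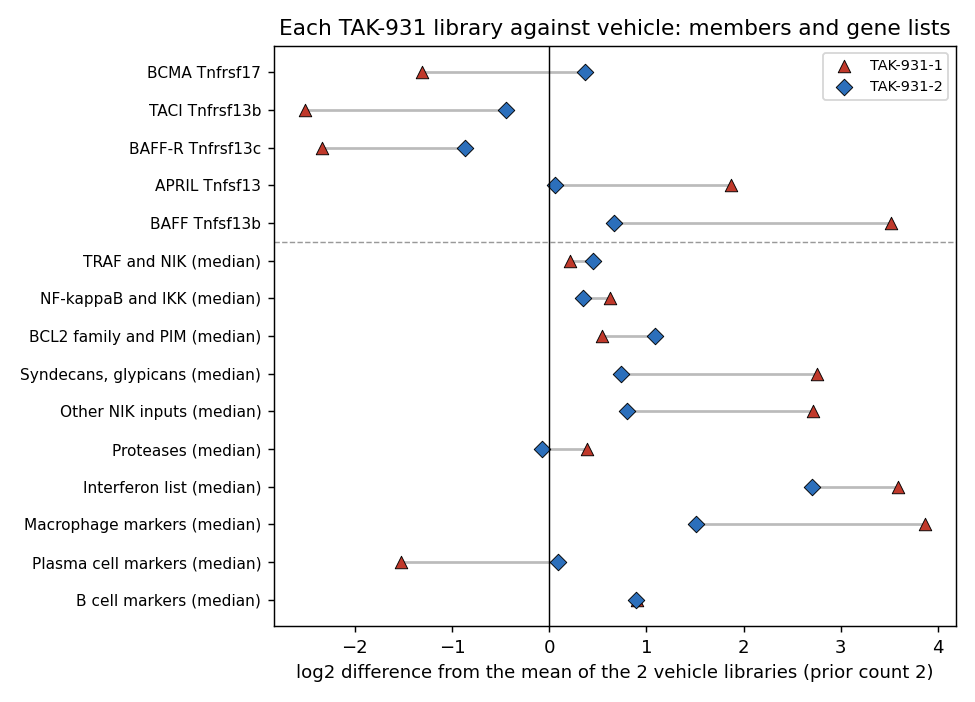
Log2 difference of TAK-931-1 (triangles) and TAK-931-2 (diamonds) from the mean of the 2 vehicle libraries, for the 5 members and for the median gene of 10 lists. TACI and BAFF-R are below 0 in both libraries, BCMA and the plasma cell markers change sign between them, the ligands are far higher in TAK-931-1, and the B cell marker points coincide because both are the value of 1 gene of low count, Bank1, so they do not describe the list.

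The genes whose log2 CPM followed each member most closely over the 4 libraries, by Euclidean distance after centring, were sought among 9621 genes. For BCMA they were Fasn (fatty acid synthase, distance 0.02), Hivep3, Zfhx2, Elk4 and Bhlhe41. Fasn was at 337, 314, 133 and 419 CPM in Vehicle-1, Vehicle-2, TAK-931-1 and TAK-931-2. For TACI they were 1700012B07Rik, Pycr1 (proline synthesis), Slc35f3, Krt222 and Tiam2, at distances between 0.09 and 0.19. For BAFF-R they were Tmem107, Sox12, Psmg1 (proteasome assembly), Srm (spermidine synthase) and Kcnk3, between 0.09 and 0.17. For BAFF they were Trem2 and Mmp12, both typical of macrophages, Aspn, Sepp1 and Gas6, between 0.53 and 0.81. With 4 libraries this likeness is a description of level only.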

How the data were processed

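Counts per gene of 4 libraries were used as deposited. Per the submitters' processing notes, the authors aligned reads with STAR 2.6.1c to mm10 and counted them with featureCounts, and they applied no normalization. Another deposited numeric column, of a different kind, holds the exon length of each gene in bases. The annotation, strand setting and handling of read pairs are not given in the sources used here. Of the counts from 1 to 20, an odd value made up 17.9% to 23.9%, so both mates of a pair appear to be counted.

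Genes were filtered with filterByExpr of edgeR 4.0.16 (minimum count 10, R 4.3.3), scaled by TMM and tested by edgeR's robust quasi-likelihood test (two-sided, treatment as sole term) with Benjamini-Hochberg adjustment over 13669 genes at 0.05. The median log2 fold change of all genes was 0.02 and the biological coefficient of variation 0.436. Log2 levels used a prior count of 2. Counting intervals were exact at 95%, and a count of 0 allows 3 counts, between 0.158 and 0.180 CPM. With 2 libraries against 2, an exact permutation test cannot go below p = 0.333. Alternatives were other size factors, filters and tests (DESeq2 1.42.0, limma-voom of limma 3.58.1), a replicate block, halved counts and each library left out in turn.

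The 5 members and all gene lists were chosen with earlier results of these data known. All 5 members were described. Genes of lists with at most 12 genes could be named, and of longer lists the 3 with the highest mean CPM and any past the adjusted threshold. For each tested member, the 5 nearest genes with a mean log2 CPM over 3 were named. Trap1a was set as a reference, and the B cell markers Pax5, Cd79a and Bank1 and the gene Ifng were named after their values were seen, as were the lists without Bcl2l11 or Ifng. Lists of dendritic cell, neutrophil, T cell, NK cell, fibroblast and endothelial markers had median log2 fold changes of 2.33, 1.72, 5.04, 4.21, 2.48 and 1.17, and of 1.14, 0.09, 2.15, 2.48, 1.13 and −0.24 without TAK-931-1. Promoters were RefSeq sequences of GRCm38.p6, and all 5 symbols matched. Protein sequences were not used here.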

Additional observations from a re-analysis of the deposited data

How the results depend on the processing

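Leaving out each library in turn gave log2 fold changes between −1.33 and 0.37 for BCMA, −2.54 and −0.44 for TACI, −2.37 and −0.87 for BAFF-R, and 0.47 and 4.43 for BAFF. BCMA turned direction without TAK-931-1, at 0.37. The number of members past the adjusted threshold was then between 0 and 4, that of all genes between 0 and 8424, and that of members whose groups did not overlap between 2 and 5. With 1 library left out, between 71.5% and 93.5% of all genes had groups that did not overlap, against 62.7% with all 4 libraries, so these counts of members say little about the members. Without TAK-931-1 and without TAK-931-2, 28.7% and 58.1% of all genes passed. Where a treated library was left out, the lone one is assumed to vary as the vehicle pair does. DESeq2 called 1389 genes of 13669, with 0 members among them, and the replicate block called 144 genes, with 0 members. The replicate numbers are not said to mark a shared mouse or batch, and same-numbered libraries did not deviate together (r = 0.0041 across genes). At an unadjusted p under 0.05 the block called 2 members, TACI (0.0292) and BAFF-R (0.00679), with 16.2% of all genes, and BAFF-R passed with DESeq2 (0.0146), limma-voom (0.0328), no filter (0.0355) and without Vehicle-1 (0.0440). With the replicate block the log2 fold changes were −0.46 for BCMA, −1.47 for TACI, −1.60 for BAFF-R and 2.30 for BAFF. Under the other size factors, filters, tests and halved counts, each tested member kept its direction with an adjusted p over 0.05. BAFF could not be tested with at least 10 counts in every library or with halved counts. Of 221 list medians under alternatives, 217 kept their sign. Without TAK-931-1 the median changed sign for plasma cell markers (0.08), proteases (−0.08) and endothelial markers (−0.24), and with limma-voom for neutrophil markers (−0.0042). Without TAK-931-1, 13 of 17 list medians moved by more than the spread between libraries. The receptor ratios and the BAFF to APRIL ratio kept their sign in every alternative run. The difference of APRIL mean log2 levels fell from 0.97 to 0.05 without TAK-931-1, where the ratio of mean CPM was 0.887, and the ratio of BAFF to macrophage markers turned only without Vehicle-2. There were 2 mice a group, and 12 or fewer counts of each ligand in 3 libraries, which limits what can be said of the ligands.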
